A study of Mus musculus with 16 samples.

Results

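Transcripts of 9 genes tied to sleep need were followed in the somatosensory cortex of mice kept awake or left undisturbed. They are the salt-inducible kinases Sik1, Sik2 and Sik3, the calcium/calmodulin-dependent kinases Camk2a, Camk2b and Camk4, the mitogen-activated kinase Mapk3 (ERK1), and the class IIa histone deacetylases Hdac4 and Hdac5. The genes were chosen by name, with earlier results of these data known, and each matched 1 of the 24421 rows of the deposited tables. All 9 had reads in every library and passed the filter on low values.

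The mice were labelled male, were 2 to 3 months old, and were either wild-type C57BL/6 or AcPb-/-, lacking the neuron-specific isoform of the IL1 receptor accessory protein. SD (sleep disruption by gentle handling) ran for 8 h from ZT20 to ZT4, and undisturbed controls were likewise collected at ZT4. Sequenced libraries in the tables number 3 in each of the groups CTL-WT (replicates 01, 02, 03), SD-WT (01, 02, 04), CTL-AcPbKO (03, 04, 05) and SD-AcPbKO (02, 03, 04), and a further 4 labelled samples were not analysed here. Both strains came from Jackson Laboratory stock and had been bred for 5 to 7 generations in the laboratory's own colony.

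SIK3 is a serine/threonine kinase of the AMPK-related family, activated by LKB1 and restrained by protein kinase A, and a splice mutation that removes its protein kinase A site makes mice sleep longer and more deeply. SIKs phosphorylate class IIa deacetylases and the CREB coactivators of the CRTC family, which holds both in the cytoplasm bound to 14-3-3 proteins. CaM kinases phosphorylate the same deacetylases in active neurons, CaMKIIα and CaMKIIβ are abundant synaptic kinases whose loss shortens sleep in mice, and ERK signaling is also required for normal sleep duration. These roles rest mainly on phosphorylation and location of the proteins, neither of which was measured here.

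The promoters of Sik2 and Sik3 are shown because these are the members whose transcripts passed the test after SD. Both come from RefSeq (build GRCm38.p6), run from 250 bases before to 50 bases after the annotated start, and are written 5′ to 3′ on the strand of the gene, with capitals marking TGACG or its reverse complement CGTCA, the core of the site that CREB binds. Sik2 lies on the minus strand at chr9:51009024-51009323 and Sik3 on the plus strand at chr9:46012570-46012869.
Sik2: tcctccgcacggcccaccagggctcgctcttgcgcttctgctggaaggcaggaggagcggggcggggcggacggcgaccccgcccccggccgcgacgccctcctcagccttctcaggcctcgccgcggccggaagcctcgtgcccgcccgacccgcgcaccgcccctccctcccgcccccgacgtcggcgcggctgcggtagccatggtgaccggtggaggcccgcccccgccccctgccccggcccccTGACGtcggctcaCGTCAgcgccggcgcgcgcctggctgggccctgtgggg
Sik3: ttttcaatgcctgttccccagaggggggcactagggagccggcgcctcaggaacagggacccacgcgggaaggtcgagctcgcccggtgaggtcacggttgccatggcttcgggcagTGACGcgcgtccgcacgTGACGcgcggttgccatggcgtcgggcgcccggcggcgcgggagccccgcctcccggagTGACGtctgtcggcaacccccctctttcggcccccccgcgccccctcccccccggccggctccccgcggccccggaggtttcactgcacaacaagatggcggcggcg

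The 300 bases of Sik2 held 2 copies of the TGACG core and those of Sik3 held 3, with GC contents of 80.0% and 73.7%. Over all 32851 RefSeq promoters of this length the median GC content was 52.7%, and 20.8% held at least 1 copy on either strand. The full palindrome TGACGTCA, which contains the core, was in neither and in 1.8% of all promoters. CACGTG, an E-box, occurred 1 time in Sik3, where it overlaps a TGACG copy, and 7.2% of all promoters held one. Promoters of Hdac4, Hdac5 and Camk2b were also in the reference table, with 3, 2 and 0 copies of the core, so that 5 of the 9 genes matched. These are letter matches and no binding was measured.

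Reads on genes ranged from 26504840 to 41615582 in the 6 control libraries and from 58770286 to 71857505 in the 6 SD libraries, so depth and SD cannot be told apart. Although the labels give male mice, 4 of the 6 controls (CTL-WT 02 and 03, CTL-AcPbKO 04 and 05) held 25352 to 39358 reads of Xist, the RNA of an inactive X chromosome, and at most 2 reads of Y-linked genes. The other 8 libraries held 5 to 13 Xist reads and 5105 to 10593 Y-linked reads. All listed markers of cortical glutamatergic neurons and of 7 other cell classes were detected in every library. The summed normalized count of the 5 microglia markers was lower after SD without overlap in both genotypes. It was 14091 to 15428 in CTL-WT and 12908 to 13938 in SD-WT, and 13935 to 14813 in CTL-AcPbKO and 10086 to 12246 in SD-AcPbKO. Of single genes, 19.7% in wild-type and 20.7% in AcPb-/- mice were lower without overlap. The microglia markers were mixed, with Cx3cr1 at 2269 to 2741 in CTL-WT and 2087 to 2156 in SD-WT. P2ry12 was at 1551 to 1747 and 1575 to 1915. The summed glutamatergic markers were lower without overlap in AcPb-/- mice (98308 to 103339 in controls, 87315 to 91861 after SD). These 7 markers were mixed too, with Slc17a7 at 58878 to 68806 in CTL-WT and 50183 to 57769 in SD-WT. Neurod6 was at 2352 to 2791 and 4421 to 5217 (single markers are named after their values were seen). The part of these markers in the results was not tested. SD-AcPbKO 04 stood apart in choroid plexus markers, whose summed normalized count was 17959 against 304 to 587 elsewhere. Il1rap, the gene of which AcPb is 1 isoform, had 1476 to 1520 normalized counts in CTL-WT and 1515 to 1647 in CTL-AcPbKO, but a count over the whole gene does not check a missing isoform.

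The genes differed widely in transcript level. RPKM are reads scaled to library total and to the merged exon length of all annotated transcripts. In RPKM, the median over the 12 libraries was 636 for Camk2a, 144 for Camk4, 95.4 for Camk2b and 55.0 for Mapk3. Next came Sik3 with 17.9 and Hdac5 with 17.8, followed by Sik1 with 3.46, Sik2 with 3.21 and Hdac4 with 2.90. Neighbours in this order did not overlap over the 12 libraries, except Sik3 with Hdac5, Sik1 with Sik2, and Sik2 with Hdac4. The order depends on the lengths used, since Camk2b had more normalized counts than Camk4 in every library. Within the SIK family Sik3 made up 73.8% ± 6.73 (SD, n = 3) of the summed per-length level in CTL-WT and 73.7% ± 1.99 in SD-WT. Among the deacetylases Hdac5 made up 86.4% ± 0.92 in CTL-WT and 85.2% ± 1.37 in SD-WT.

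**Figure D1:**
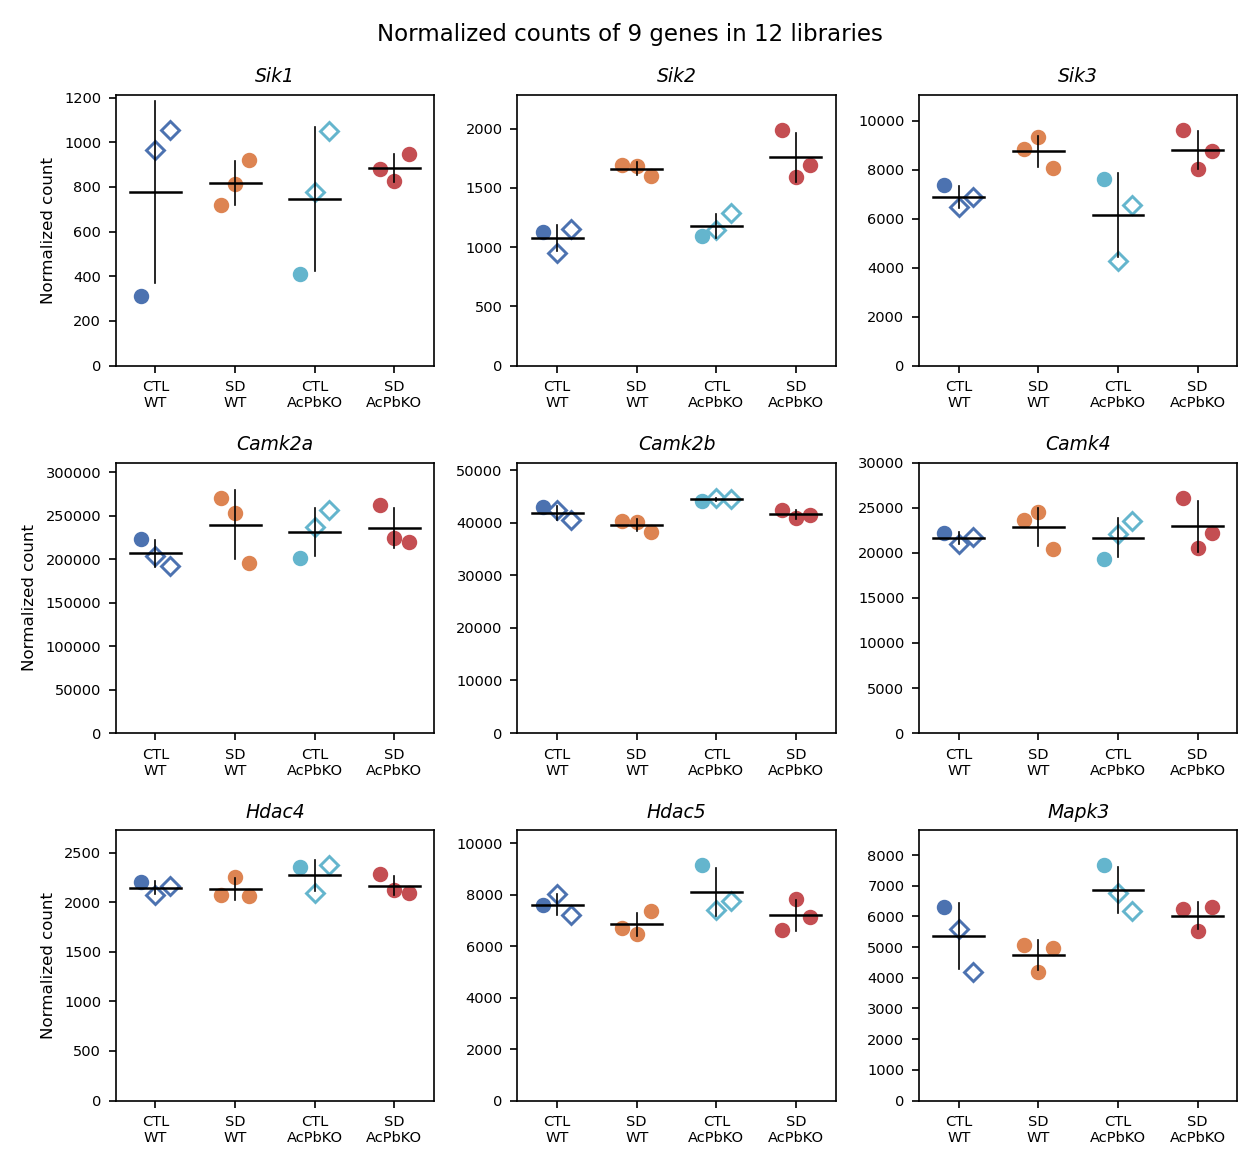
Normalized counts (12 libraries normalized together, y axes starting at 0) of the 9 genes by group on the x axis. Each point is 1 library, open diamonds are the 4 libraries with Xist reads, horizontal lines are means and vertical lines the SD of 3 libraries. The 6 SD libraries lie above all 6 controls for Sik2 and for Sik3, and the lowest Sik1 values are the 2 controls without Xist.

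The first question was whether SD changed these transcripts in wild-type cortex. Sik2 and Sik3 were upregulated, and the other 7 genes did not pass the test. In the limma fit across all genes (adjusted p under 0.05, here and below the call of a gene as changed), 2 of the 9 genes were higher and 0 lower, where 25.4% of the 20417 genes tested were called (13.2% higher, 12.2% lower) and 38.8% of the 7890 genes averaging 1000 counts or more. The share of changed members was therefore no greater than among all genes. The median log2 fold change of the 9 genes was 0.08, against -0.0039 over all genes tested. Fold changes are on the scale log2(normalized count + 1) and are given SD over control.

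Sik2, on chromosome 9 (GRCm38 50892801 to 51009073, minus strand), encodes a kinase of CRTC coactivators. Its normalized counts were 1159, 977 and 1191 in CTL-WT 01, 02 and 03, and 1746, 1741 and 1645 in SD-WT 01, 02 and 04. Every SD library was above every control, and the SD libraries were closer to each other than the controls were. Sik2 rose 1.55-fold (log2 fold change 0.63, SE 0.08, 95% confidence interval 0.45 to 0.81, adjusted p = 0.0009). The AcPb-/- counts were 1064, 1114 and 1252 in controls 03, 04 and 05, and 1934, 1546 and 1647 in SD libraries 02, 03 and 04. Again the groups did not overlap, and the rise was 1.49-fold (log2 fold change 0.58, SE 0.10, interval 0.35 to 0.80, adjusted p = 0.0038). With any 1 library left out, Sik2 stayed past the threshold in both genotypes (log2 fold changes 0.54 to 0.68 and 0.48 to 0.65).

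Exons of Sik2 share 1429 bases (15.0% of its exon length) with Ppp2r1b, a scaffold subunit of protein phosphatase 2A on the other strand. Ppp2r1b itself was higher after SD, by 0.38 in wild-type (adjusted p = 0.0077) and 0.37 in AcPb-/- (adjusted p = 0.011). The kit keeps strand, but the strand setting of the counting was not given in the sources used here, and reads of the shared bases may belong to either gene. Without the 4 libraries with Xist, the log2 fold change of Sik2 was 0.56 in wild-type (adjusted p = 0.068) and 0.67 in AcPb-/- (adjusted p = 0.033). Without SD-AcPbKO 04, the library with choroid plexus markers, it was 0.60 in AcPb-/- (adjusted p = 0.015).

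Sik3, the kinase with the known sleep mutation, lies on chromosome 9 (46012820 to 46224194, plus strand). In wild-type mice its normalized counts were 7580, 6645 and 7081 in controls and 9112, 9606 and 8314 after SD. The groups did not overlap and the rise was 1.27-fold (log2 fold change 0.34, SE 0.07, interval 0.18 to 0.50, adjusted p = 0.0075). AcPb-/- controls had counts of 7399, 4161 and 6355, with replicate 04 far below the other two, and SD libraries had 9353, 7789 and 8528. The SD libraries were again all higher, at a log2 fold change of 0.56 (SE 0.18, interval 0.14 to 0.97), but the adjusted p was 0.053.

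The Sik3 call depended on the method and on the libraries used. For AcPb-/- mice edgeR (adjusted p = 0.044) and DESeq2 (adjusted p = 0.0064) on recovered reads did call Sik3. So did the joint fit of 4 groups (0.55, adjusted p = 0.017, where 30.9% of genes were called). Of the 6 fits with 1 library left out, 1 called it, that without CTL-AcPbKO 03 (0.73, adjusted p = 0.013). Without CTL-AcPbKO 04 the log2 fold change was 0.32 (adjusted p = 0.076). Over the 10 other alternative settings the AcPb-/- log2 fold change ran from 0.20 to 0.56, and 4 of them called Sik3. The fit with a term for libraries with Xist did not call it in AcPb-/- mice. CTL-AcPbKO 04 also had the lowest summed oligodendrocyte markers of its group (53954, against 124101 in replicate 03 and 72637 in replicate 05). The part of these markers in the Sik3 values was not tested. In wild-type mice the joint fit gave 0.34 (adjusted p = 0.14, where 24.3% were called), a term for the libraries with Xist gave 0.12 (adjusted p = 0.67), and leaving those libraries out gave 0.25 (adjusted p = 0.26). The 2 controls without Xist had 7360 and 7628 counts of Sik3 with all libraries normalized together, the 4 controls with Xist 4285 to 6864, and the SD libraries 8020 to 9607.

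Sik1 is the SIK transcribed as an immediate-early target of CREB, on chromosome 17 (31844250 to 31855804, minus strand). Its counts in wild-type mice were 319, 996 and 1087 in controls and 742, 840 and 946 after SD. Control replicate 01 was far below the other two, which exceeded every SD library, so the groups overlapped. The log2 fold change was 0.26 (SE 0.37, interval -0.55 to 1.07, adjusted p = 0.66), an interval that holds both a fall and a doubling. AcPb-/- controls had 396, 754 and 1020 counts and SD libraries 856, 802 and 922. There 1 control was far below the SD libraries, 1 just below and 1 above. The log2 fold change there was 0.35 (SE 0.28, interval -0.29 to 1.0, adjusted p = 0.41).

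The low Sik1 controls, CTL-WT 01 and CTL-AcPbKO 03, were the controls without Xist. They also had the highest summed striatal neuron markers of their groups (26450 against 12729 and 18611, and 18645 against 13528 and 14060) and the highest summed oligodendrocyte markers (136457 against 106978 and 113478, and 124101 against 53954 and 72637). The part of these markers in the Sik1 values was not tested, and in these 2 libraries they cannot be told apart from the absence of Xist. With the 12 libraries normalized together, the 2 controls without Xist had 310 and 408 counts, the 4 controls with Xist 777 to 1054, and the 6 SD libraries, none with Xist, 721 to 949. In a joint limma fit with a term for libraries with Xist, that term was 1.42 for Sik1 (SE 0.14, adjusted p = 0.00079), where 84 of 20978 genes (0.400%) were called, and it was past the threshold for none of the other 8 genes. In that fit Sik1 rose after SD by 1.2 in wild-type (SE 0.17, adjusted p = 0.0011) and 1.30 in AcPb-/- (SE 0.17, adjusted p = 0.0004), where 19.3% and 24.7% of genes were called. Leaving the 4 libraries out gave 1.39 (adjusted p = 0.036) and 1.11 (adjusted p = 0.024), where 2.02% and 5.42% of genes were called higher. With the 4 libraries left out, each contrast rests on a single control, whose spread is taken from the other groups. In the fit with the term all controls enter, and the Xist difference is shared by both genotypes. Its control level without Xist still leans on CTL-WT 01 and CTL-AcPbKO 03. Without the low control, the log2 fold change was -0.31 in wild-type (without CTL-WT 01, adjusted p = 0.071) and -0.03 in AcPb-/- (without CTL-AcPbKO 03, adjusted p = 0.88). The direction for Sik1 thus turned on 1 control library in each genotype.

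By the measure of Pearson correlation of log2 normalized counts over the 12 libraries, among 13121 genes averaging 100 counts or more, those most like Sik1 were Csrnp1 (r = 0.96), Egr2 (0.95) and Nr4a1 (0.95). All 3 encode transcription factors, and Egr2 and Nr4a1 are immediate-early genes of active neurons. Their normalized counts in CTL-WT 01 were 305, 159 and 3170, the lowest of the 12 libraries for each. None was changed by SD in the fits of 6 libraries, with log2 fold changes of 0.21, 0.23 and 0.30 in wild-type. With the Xist term they were 0.96, 1.5 and 0.97, which is a description only, since these genes were chosen for their likeness to Sik1 over the same libraries.

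**Figure D2:**
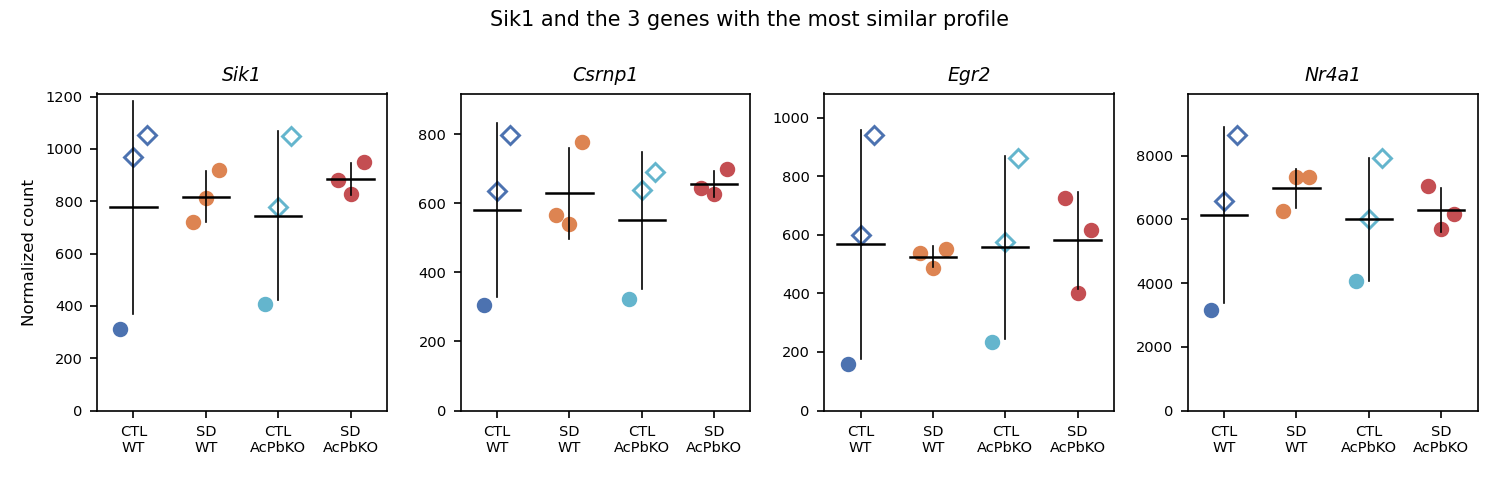
Normalized counts (12 libraries normalized together, y axes starting at 0) of Sik1, Csrnp1, Egr2 and Nr4a1 by group on the x axis, with 1 point per library, open diamonds for libraries with Xist, lines for means and bars for the SD of 3 libraries. In each panel the 2 control libraries without Xist sit below the 4 with it, and Sik1 is at 310 and 408 there.

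Sik2 was most like Bcor (r = 0.99), a transcriptional corepressor, Gfod1 (0.99) and Gramd1b (0.98), a sterol transfer protein. The log2 fold changes of Bcor, likewise chosen on these libraries, were 0.86 in wild-type and 0.76 in AcPb-/-. Sik3 was most like Rinl (0.97), Trpv6 (0.93) and Ccdc34 (0.92). All 12 libraries share the groups and their depth difference, so such likeness describes the profile only.

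Of the CaM kinases among the 9 genes, none was changed by SD in either genotype. Camk2a, the α subunit of CaMKII and the most abundant of the 9 transcripts, had 230128, 209740 and 197898 counts in wild-type controls and 278162, 260822 and 201049 after SD. Replicate 04 of SD-WT lay within the control range and the other SD libraries above it. The log2 fold change was 0.20 (SE 0.13, interval -0.09 to 0.50, adjusted p = 0.30), and without SD-WT 04 it was 0.34 (adjusted p = 0.023). Among AcPb-/- mice Camk2a was at 195256 to 248296 in controls and 214005 to 255438 after SD, a log2 fold change of 0.03 (adjusted p = 0.87).

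Camk2b, the β subunit that binds actin, showed small differences. Its wild-type counts were 44230, 43586 and 41717 in controls and 41543, 41458 and 39358 after SD, and the AcPb-/- counts were 42903, 43463 and 43191 in controls and 41344, 39700 and 40289 after SD. In both genotypes each SD library was below each control, as for 19.7% and 20.7% of all genes tested. The log2 fold changes of -0.08 (interval -0.23 to 0.06, adjusted p = 0.41) and -0.09 (interval -0.24 to 0.05, adjusted p = 0.32) did not pass the test. Camk4, a nuclear kinase of CREB, had log2 fold changes of 0.08 (interval -0.10 to 0.25) and 0.08 (interval -0.16 to 0.33), with overlapping groups.

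Of the summed per-length level of the 4 CaMKII genes, Camk2a made up 77.0% to 79.5% in CTL-WT and 80.4% to 84.2% in SD-WT, and 77.3% to 80.8% in CTL-AcPbKO and 80.5% to 83.2% in SD-AcPbKO. Camk2g, the γ subunit, made up 7.28% to 9.01% in CTL-WT and 5.00% to 5.96% in SD-WT. Camk2g itself was lower after SD, at -0.41 in wild-type (adjusted p = 0.0047) and -0.36 in AcPb-/- (adjusted p = 0.031).

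Mapk3, 1 of the pair of ERK kinases, lies on chromosome 7 (126759601 to 126765819, plus strand). Wild-type counts were 6498, 5764 and 4314 in controls and 5199, 4318 and 5118 after SD, with control 03 as low as the lowest SD library. The log2 fold change was -0.16 (SE 0.13, interval -0.46 to 0.13, adjusted p = 0.41), and without CTL-WT 03 it was -0.33 (adjusted p = 0.036). The AcPb-/- counts were 7436, 6558 and 5982 in controls and 6089, 5355 and 6119 after SD, with a log2 fold change of -0.18 (SE 0.09, adjusted p = 0.17). With the Xist term the AcPb-/- value was -0.40 (adjusted p = 0.041).

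The deacetylases Hdac4 and Hdac5, which carry the signal of SIKs and CaM kinases to MEF2 target genes, were not called in either genotype. Hdac4, on chromosome 1, had 2272, 2135 and 2229 counts in wild-type controls and 2135, 2331 and 2123 after SD, a log2 fold change of -0.01 (interval -0.15 to 0.13). The value for Hdac4 in AcPb-/- mice was -0.06 (interval -0.22 to 0.09), and neither interval reaches the rise of Sik2. Hdac4 shares 22.4% of its exon bases with the noncoding Gm26720 on the other strand.

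Hdac5, on chromosome 11, had 7832, 8282 and 7433 counts in wild-type controls and 6891, 6700 and 7575 after SD. Only SD-WT 04 overlapped the controls. Its log2 fold change was -0.15 (SE 0.07, interval -0.30 to -0.0049, adjusted p = 0.12), and without SD-WT 04 it was -0.21 (adjusted p = 0.025). Among AcPb-/- mice Hdac5 was at 7192 to 8876 in controls and 6466 to 7600 after SD, a log2 fold change of -0.17 (interval -0.37 to 0.04, adjusted p = 0.22).

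In AcPb-/- mice 1 of the 9 genes was therefore higher and 0 lower, where 27.4% of the 20574 genes tested were called (14.1% higher, 13.3% lower). The median of the 9 log2 fold changes was 0.03, against 0.01 over all genes. The groups of Sik2 and Sik3 did not overlap upward in either genotype, as for 20.5% of genes in wild-type and 21.7% in AcPb-/-. Since tissue was homogenised, fewer cells of a type and less RNA per cell cannot be told apart in any of these values.

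**Figure D3:**
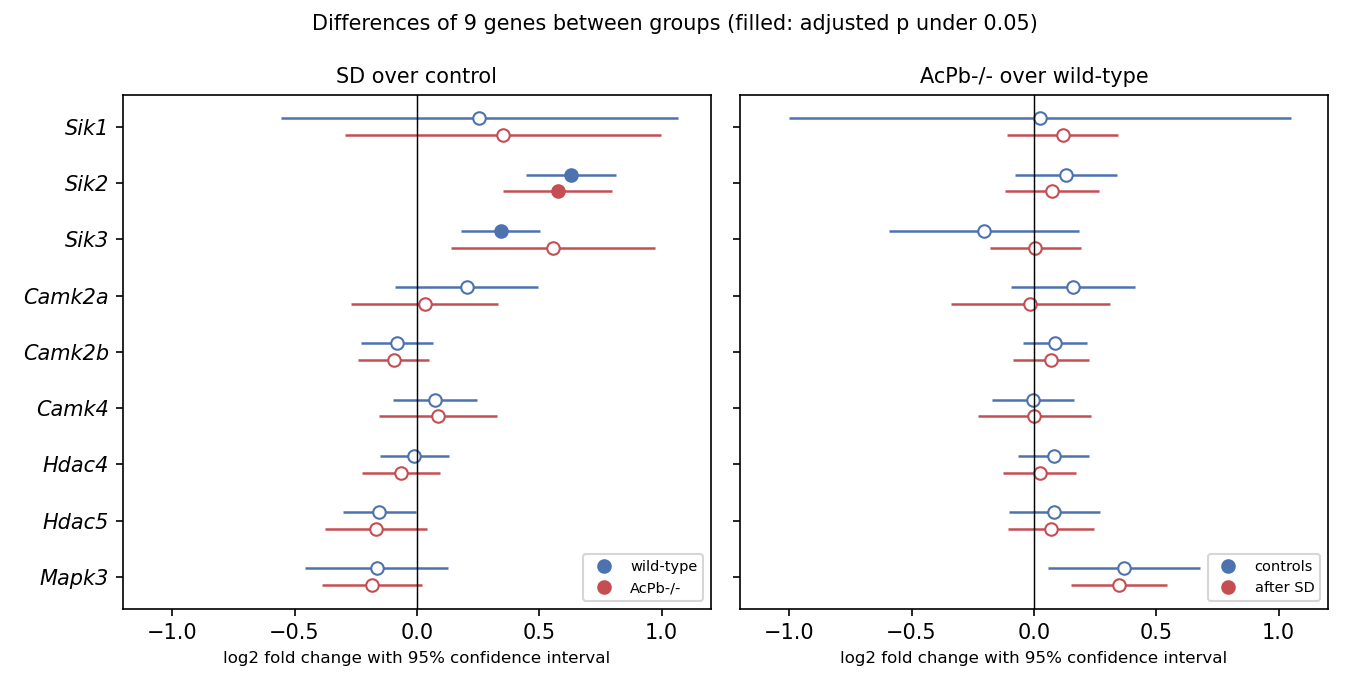
Log2 fold changes (x axis) of the 9 genes with their 95% confidence intervals, from limma on 3 libraries a group, for SD over control at the left and AcPb-/- over wild-type at the right. Filled points passed an adjusted p of 0.05, which holds for Sik2 in both genotypes (0.63 and 0.58) and Sik3 in wild-type mice (0.34).

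The next comparison asked whether the loss of AcPb changed the 9 transcripts. None passed the limma test in undisturbed mice, where 4 of 20273 genes (0.0197%) were called, or after SD, where 3 of 20621 (0.0145%) were. At an unadjusted p under 0.05 there was 1 member in each, Mapk3 in both, and 1730 (8.53%) and 1265 (6.13%) of all genes. edgeR and DESeq2 also called 0 of the 9 in each comparison.

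The log2 difference of Mapk3, AcPb-/- over wild-type, was 0.37 in controls (SE 0.14, interval 0.06 to 0.68, adjusted p = 0.51) and 0.35 after SD (SE 0.09, interval 0.15 to 0.54, adjusted p = 0.43). In the table of SD libraries its counts were 6926, 5745 and 6832 in wild-type and 8560, 7557 and 8657 in AcPb-/-, with no overlap. In the table of controls they were 4619, 4097 and 3050 in wild-type and 5613, 4926 and 4499 in AcPb-/-, where the highest wild-type library lay above the lowest AcPb-/- library. For Camk2b every AcPb-/- library was above every wild-type library in both comparisons, with log2 differences of 0.09 in controls and 0.07 after SD, whose intervals reach below 0. Such a lack of overlap upward was seen for 7.35% of all genes in controls and 5.35% after SD.

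The other 7 genes differed between genotypes by -0.20 (Sik3) to 0.16 (Camk2a) in controls and by -0.01 (Camk2a) to 0.12 (Sik1) after SD, all with overlapping groups. After SD the interval of the difference was -0.12 to 0.27 for Sik2 and -0.18 to 0.19 for Sik3. For Sik1 in controls it ran from -1.0 to 1.05, so that these libraries left its size undetermined there.

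Whether the response to SD differed by genotype was tested as the interaction in the joint fit of 12 libraries. Neither limma, edgeR nor DESeq2 called any of the 9 genes, limma called 0 of 20978 genes, and 839 (4.00%) had an unadjusted p under 0.05, none of them a member. The difference of the SD effects, AcPb-/- minus wild-type, was -0.06 for Sik2 (SE 0.13, interval -0.35 to 0.23) and 0.21 for Sik3 (SE 0.22, interval -0.27 to 0.69). For Sik1 it was 0.09, with an interval from -1.12 to 1.3.

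Genes that act around these kinases were read from 6 lists of 70 genes. In wild-type mice 15 were higher and 15 lower after SD, and in AcPb-/- mice 15 and 16, against the 25.4% and 27.4% of all genes called and 38.8% and 43.3% of genes averaging 1000 counts or more. Genes beyond the 5 with the largest changes in each comparison are named here after their values were seen.

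Among 11 genes upstream of SIKs (LKB1 with its partners and protein kinase A), 1 was higher and 2 lower in wild-type mice. Prkar2a, a regulatory subunit of protein kinase A, was higher (0.32, adjusted p = 0.0035), and the catalytic subunit Prkaca and the regulatory subunit Prkar2b were lower. Prkar2a (0.49, adjusted p = 0.0020) and Cab39l were higher in AcPb-/- mice, and Prkaca and Strada lower. Stk11, which encodes LKB1, was at -0.05 and -0.12 and not called.

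Of 14 CaM kinase relatives and regulators, 3 were higher and 4 lower in each genotype. Camk1g, a membrane-anchored CaM kinase I, rose by 0.90 in wild-type (SE 0.10, adjusted p = 0.0005) and 0.77 in AcPb-/- (SE 0.11, adjusted p = 0.0020), in these fits of 6 libraries more than any of the 9 genes. Camk1 and the calmodulin gene Calm2 were also higher in both. Camk2n2, an inhibitor of CaMKII, was at -0.41 and -0.70 (adjusted p = 0.0020 and 0.0021), and Camk2g, Camkk2 and Camkv were also lower in both genotypes.

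In the ERK module of 10 genes, 1 was higher and 4 lower in wild-type mice and 1 higher and 5 lower in AcPb-/- mice. The kinases that activate ERK both fell, with Map2k2 at -0.69 and -0.87 (adjusted p = 0.0016 and 0.0006) and Map2k1 at -0.52 in each (adjusted p = 0.0023 and 0.0015). The scaffold Ksr1 rose by 0.45 and 0.58 (adjusted p = 0.0033 and 0.0071). Hras was lower in both genotypes, and Nras was lower in AcPb-/- mice.

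Of 16 partners of the deacetylases, 4 were higher and 1 lower in wild-type mice, and 3 and 1 in AcPb-/- mice. Mef2d, a transcription factor that class IIa deacetylases repress, rose by 0.39 (adjusted p = 0.012) and 0.32 (adjusted p = 0.013). Ncor1, a corepressor, was higher in both, Ywhah, a 14-3-3 protein, was higher in wild-type mice, and Hdac9, another class IIa deacetylase, was lower in both.

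In the list for CREB coactivation, 8 genes, 4 were higher and 0 lower in wild-type mice, namely Creb1, Crtc2, Crebbp and Ep300. Creb1, Crem, Crebbp and Ep300 were higher in AcPb-/- mice and Crtc1 was lower. The median log2 fold change of this list was 0.27 and 0.24. Among 11 phosphatase genes Ppp2ca and Ppp1cc were higher in both, Ppp3r1, Ppp2r1a and Ppp1cb were lower in both, and Ppp3cb was lower in wild-type mice. Without the 4 libraries with Xist, limma called 0 of the 70 genes in wild-type mice (19 at an unadjusted p under 0.05) and 6 in AcPb-/- mice (24), where 680 and 2080 of 20768 genes were called. Between genotypes limma called 0 of the 70 in controls (12 at an unadjusted p under 0.05), after SD (7) and in the interaction (2), where edgeR called 0 in each and DESeq2 called 1 after SD.

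**Figure D4:**
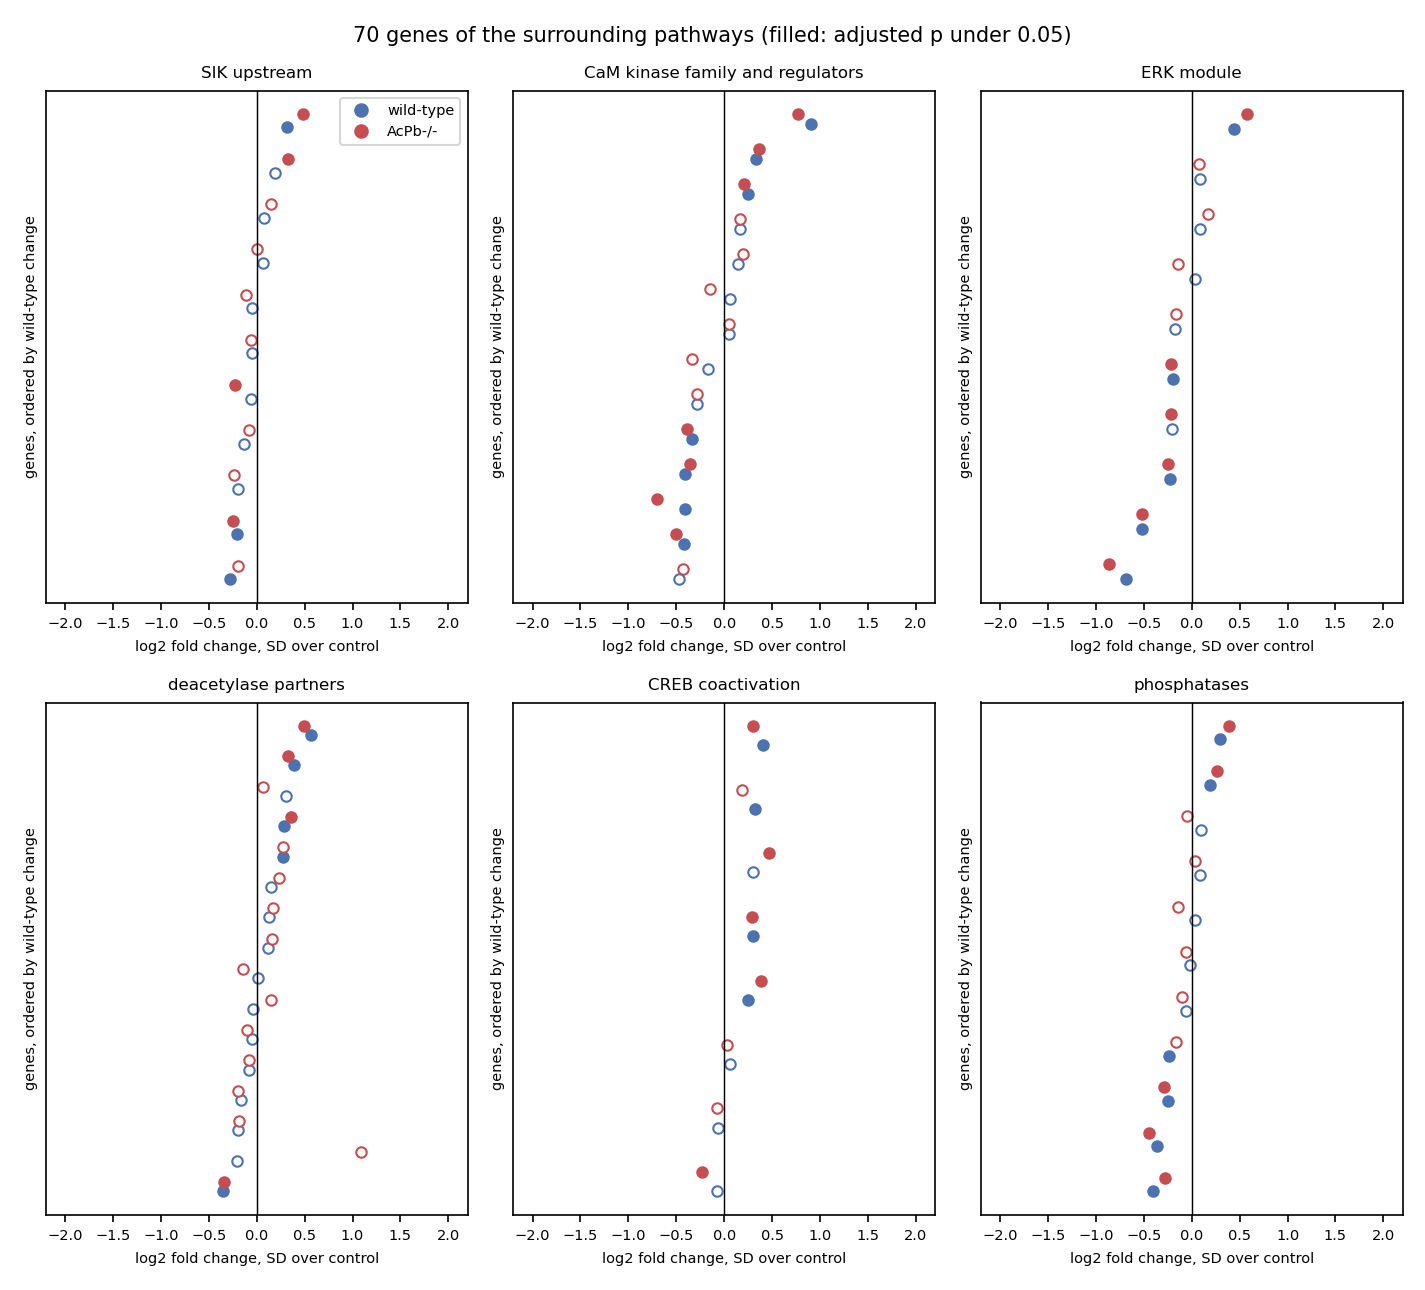
Log2 fold changes after SD (x axis, same range in each panel) of the 70 genes in 6 lists, in wild-type and AcPb-/- mice, with 1 row per gene in the order of the wild-type change (y axis, genes not named) and points filled where the adjusted p was under 0.05. The changes of Camk1g (0.90 and 0.77) and of Map2k2 (-0.69 and -0.87) stand farthest from 0 among the filled points.

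The remaining genes had these nearest profiles by the same measure. Camk2a was most like Ackr2 (r = 0.96), Pitpnm2 (0.93) and Bmp1 (0.92), Camk2b like Ccdc85c (0.95), Hexim2 (0.95) and Pik3ip1 (0.95), and Camk4 like Cdh6 (0.95), Epha4 (0.94) and Gpr158 (0.92). Hdac5 was most like Vash1 (0.95), Adam15 (0.93) and Nle1 (0.92), and Mapk3 like Samd14 (0.95), Krt77 (0.92) and Ap3b2 (0.92). Hdac4, whose levels varied least over the libraries, had the weakest likeness, to Nup133 (0.83), Xrcc6 (0.81) and Primpol (0.81).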

How the data were processed

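RNA of somatosensory cortex from the 4 groups was sequenced by the authors as stranded, paired-end libraries of polyadenylated RNA. Per the methods and the submitters' processing notes, reads were aligned to mm10 with HISAT2 (version 2.2.1) and 2 groups at a time were compared with DESeq2 (version 1.31.16). The processing notes name featureCounts as the counter and the paper's methods name HTSeq, and the strand setting and annotation are not given in the sources used here. The deposited per-library values are signal, read counts divided by a size factor of each library, in 5 tables of 24421 genes. Their fold change, test and mean columns were not used, and the table that differs in both genotype and SD was not tested. Undoing the size factors gave whole reads for 100.0% of 732630 values (within 0.01), with 0 counts that differed between tables.

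As the values are normalized, all genes with a read in a library of the comparison entered a limma fit (version 3.58.1, R 4.3.3) of log2(normalized count + 1) with its trend option, with Benjamini-Hochberg adjustment and a threshold of 0.05. Each fit of 6 libraries had 4 residual degrees of freedom, and the joint fit, normalized over 12 libraries, had 8. P-values and intervals rest on the spread between the 3 mice of a group, drawn toward a variance trend over all genes tested. This moderation adds to the residual degrees of freedom. Alternatives were edgeR (version 4.0.16) and DESeq2 (version 1.42.0) on recovered reads, TMM scaling, a pseudocount of 10, a mean of at least 10, all 4 groups in one fit, a replicate block, a term for libraries with over 1000 Xist reads, leaving those out, thinning to 26504840 reads (seed 1) and leaving out each library. The scripts were tested on simulated data. Promoters and positions came from RefSeq and GENCODE M21 (23384 of 24421 symbols matched, 95.8%). Python 3.11.15, NumPy 2.4.6, pandas 2.3.3 and matplotlib 3.10.9 were used.

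The 9 genes, the 6 lists and the tests were chosen with earlier results of these data known. Named are the 9 genes, in each SD comparison the 5 genes of the lists past the threshold with the largest absolute log2 fold change and a mean of at least 100, and the 3 genes most correlated with each of the 9, except list genes that are not reported here. No 2 libraries of a group agreed within sampling noise.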

Additional observations from a re-analysis of the deposited data

How the results depend on the processing

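Depth separates controls from SD libraries, 4 controls hold Xist, and each group has 3 libraries, so the counts rest on few degrees of freedom. The cause of a changed value was not tested except where fewer libraries enter.

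Of the 9 genes, 2 were past the threshold after SD in wild-type mice, 1 with all 4 groups in one fit (Sik2), and 1 without the libraries with Xist (Sik1). In AcPb-/- mice 1 was past, and 2 with edgeR, DESeq2, a mean of at least 10, all 4 groups in one fit or without the libraries with Xist, and 3 with the Xist term. With 1 library left out, 2 to 4 were past in wild-type mice (4 without SD-WT 04, 3 without CTL-WT 03) and 1 to 2 in AcPb-/- mice (2 without CTL-AcPbKO 03). Of the 70 list genes, 30 were past in wild-type mice, 18 with the Xist term and 0 without the libraries with Xist, and with 1 library left out 11 to 39 (13 without CTL-WT 02, 13 without SD-WT 01, 11 without SD-WT 02). In AcPb-/- mice 31 were past, 6 without the libraries with Xist and 17 to 31 with 1 library left out (18 without CTL-AcPbKO 04, 20 without CTL-AcPbKO 05, 17 without SD-AcPbKO 02, 18 without SD-AcPbKO 04). With all libraries thinned to 26504840 reads, limma called 2 of the 9 genes and 29 of the 70 after SD in wild-type mice. In AcPb-/- mice it then called 1 of the 9 and 29 of the 69 list genes tested. After SD, DESeq2 called 1 of the 70 between genotypes, where limma called 0.

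The labels tie replicate numbers to no shared source, and over 10 same-numbered pairs the deviations from group means correlated from -0.60 to 0.36, with 4 over 0.1. With the replicate number as a block, limma called 0 of the 9 genes (4 at an unadjusted p under 0.05) and 0 of the 70 (38) in wild-type mice, and 0 of the 9 (1) and 0 of the 70 (26) in AcPb-/- mice. Sik2 was then at 0.71 (adjusted p = 0.092) and 0.55 (adjusted p = 0.19), and for controls between genotypes the block could not be fitted. The block turned Hdac4 after SD in wild-type mice to 0.0185, and between genotypes after SD Camk2a to 0.11 and Hdac5 to -0.0073.

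No reversed value was past the threshold. Thinning gave 0.0213 for Hdac4 after SD in wild-type mice, -0.0083 for Sik1 between controls, -0.0151 for Sik3 and -0.0010 for Hdac4 between genotypes after SD, and 0.0096 for the Hdac5 interaction. edgeR gave -0.0681 and DESeq2 -0.061 for Sik1 between controls. Without the libraries with Xist the differences between controls were -0.0366 (Sik2), 0.0516 (Sik3) and -0.15 (Camk2a), and the interactions -0.28 (Sik1), 0.11 (Sik2), -0.0451 (Sik3), 0.14 (Camk2a), 0.0282 (Camk2b) and 0.067 (Mapk3).

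With each library left out in turn, values that changed sign ran after SD in wild-type mice from -0.31 to 0.57 (Sik1) and -0.0548 to 0.0128 (Hdac4), and in AcPb-/- mice from -0.0307 to 0.65 (Sik1), -0.0644 to 0.11 (Camk2a) and -0.0127 to 0.16 (Camk4). Between controls they ran from -0.54 to 0.40 (Sik1), -0.38 to 0.0383 (Sik3), -0.0662 to 0.0743 (Camk4) and -0.0078 to 0.15 (Hdac5). Between genotypes after SD they ran from -0.0153 to 0.14 (Sik2), -0.0578 to 0.0716 (Sik3), -0.15 to 0.0784 (Camk2a), -0.0933 to 0.0779 (Camk4) and -0.0113 to 0.0667 (Hdac4). Interactions ran from -0.29 to 0.66 (Sik1), -0.15 to 0.0305 (Sik2), -0.0314 to 0.38 (Sik3), -0.041 to 0.0095 (Camk2b), -0.0905 to 0.0815 (Camk4), -0.0767 to 0.0758 (Hdac5) and -0.15 to 0.15 (Mapk3).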
